A study of Mus musculus with 10 samples.

Results

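The receptor for thymic stromal lymphopoietin (TSLP), TSLPR, was present in the CD4+ T cells of some of the sequenced mice and deleted in those of others, and the libraries were divided by that genotype alone. Of all 10 libraries of the series, 3 came from TSLPR-null T cells (Null 3, Null 4 and Null 7) and 7 from receptor-competent T cells (Competent 1, 2, 5, 6, 8, 9 and 10), the numbers being those of the samples. TSLP is an epithelial cytokine of barrier tissues. It binds a receptor made of a private chain, encoded by Crlf2, and the interleukin 7 receptor chain, encoded by Il7r. The receptor signals through the kinases JAK1 and JAK2 to the transcription factor STAT5, and in CD4+ T cells TSLP is known for favouring the T helper type 2 (Th2) state, in which interleukins 4, 5 and 13 are made.

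All cells were CD4+ T cells, by the labels sorted from mice with terminal tumors. The sources differ on what followed. The labels describe a stimulation in culture with anti-CD3, anti-CD28, IL-2 and TSLP for all samples, whereas the paper's text describes the sequenced cells as fresh from the sort and names no culture, so whether the cells met TSLP in a dish is unsettled. Competent 1, 2 and 5 were Ly5.1 CD4+ T cells put into K14-TSLP +/tg, TSLPR -/- hosts that were injected with PyMT tumors. Competent 1 (draining lymph nodes) and Competent 2 (non-draining lymph nodes) came from the same 4 mice, and Competent 5 pooled the non-draining nodes of 2 mice. Competent 6 came from 1 K14-TSLP +/tg, MMTV-PyMT +/tg, TSLPR +/- mouse. Null 3 (draining nodes, 4 mice) and Null 4 (nodes of 1 mouse) were TSLPRKO CD4+ T cells in TSLPR -/- hosts with injected PyMT tumors and no named transgene. Null 7 came from the spleen of 1 K14-TSLP +/tg, MMTV-PyMT +/tg, TSLPR -/- mouse. These 7 libraries were C57BL/6. The other 3, each from the nodes of 1 mouse, were BALB/c: Competent 8 (K14-TSLP +/tg, MMTV-PyMT +/tg, Rag1 -/- with CD4+ T cells transferred), Competent 10 (K14-TSLP +/tg, MMTV-PyMT +/tg, Rag1 +/-) and Competent 9 (Rag1 +/-, no transgene and no source of a tumor named). K14 is a keratin promoter active in skin, where the transgene makes TSLP, and MMTV-PyMT drives a viral oncogene in mammary epithelium. The labels of the BALB/c libraries do not state TSLPR, and they were taken as competent because no deletion is named. Hosts other than Rag1 -/- keep T cells of their own, and whether donor cells were separated from host cells in the sort is not given in the labels.

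The genotype groups therefore also differed in other ways. All 3 null libraries were C57BL/6, and 6 of the 7 competent libraries but only 1 of the 3 null libraries came from hosts with the TSLP transgene. Null 7 (transgene, no receptor) and Competent 9 (receptor, no transgene) are the libraries in which the genotype and the transgene part, and the level of Competent 9 is stated for each gene named, other than cell type markers. The table gives FPKM, fragments scaled by transcript length and by library size, for 17457 genes without counts, so the absolute depth is unknown. Relative to Competent 1, the steps between low values put the depth of 8 other libraries from 0.643 (Null 4) to 1.20 times (Competent 2). For Competent 6 they gave 2.06 times, but its commonest step held 9.9% of low values, against 13.1 to 20.4% elsewhere. The depth of Competent 6 is therefore uncertain. That library stood apart. Ribosomal RNA made up 1.18% of its summed FPKM and 10.7 to 25.99% of that of the others, and it lay at 91.6 on the first principal component while the others lay between -32.2 and -1.97. The 11 T cell identity markers summed to 1629 to 3193 FPKM in every library, so the markers of the labelled cell type were present in all of them. Markers of other cell types were present at differing levels. Plasma cell markers summed to 41.3 to 263 FPKM, mostly Xbp1, which activated T cells also express. Igj of that list was at 32.9 FPKM in Competent 6 and at 0 to 1.93 FPKM in the others. Neutrophil markers summed to 34.8 FPKM and monocyte and macrophage markers to 22.7 FPKM in Competent 6, the highest library for both. The sums in null cells were at most 11.1 and 9.27 FPKM. A part of such cells in the levels of Competent 6 was not tested. Fibroblast and stromal markers summed to 17.5 to 70.8 FPKM, highest for Pecam1. B cell markers summed to 3.98 to 32.3 FPKM in null cells, highest in Null 4, and to 1.35 to 16.8 FPKM in competent cells. The red cell markers summed to 100 FPKM in Competent 6, against 0.38 in Competent 10, the lowest library, and basophil and mast cell markers to 17.3 FPKM in Competent 8, mostly Kit at 16.7. Libraries were treated as replicates, so p-values measure the spread between these libraries, of which Competent 1 and 2 share mice. Fewer cells of a kind and less RNA per cell cannot be told apart in these bulk libraries.

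Crlf2 separated the genotypes without overlap. It lay at 0.15, 0.21 and 0.16 FPKM in Null 3, Null 4 and Null 7, and ranged in the competent libraries from 3.28 (Competent 9) over a median of 7.27 to 34.9 (Competent 6). The null libraries were thus at or near 0 with and without the TSLP transgene, in accord with their labels. Crlf2 was higher in competent cells by 3.09 ± 0.50 (SE) on the log2(FPKM + 1) scale, with an adjusted p of 0.0752 by limma over all 11092 genes tested. Differences on this scale understate the change of genes at low levels. Without Competent 9 the difference was 3.29 ± 0.46 (adjusted p = 0.0283, limma). Competent 9 lay between the ranges, at 0.57 of the way from the null mean to the mean of the 6 competent libraries of transgenic hosts, a measure called its place, in which 0 is the null mean and 1 the transgenic competent mean. It fell short of the lowest transgenic library, Competent 10, at 5.70 FPKM.

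Crlf2 lies on chromosome 5 at 109554709 to 109559128 (GRCm38). Of 75 other tested genes within 5 Mb, 9 had an unadjusted p under 0.05, a level that 7.52% of all genes reached, and none passed the adjusted threshold (smallest adjusted p = 0.610, limma). The rest of the receptor pathway did not divide the genotypes. Il7r ranged from 57.5 to 116 FPKM in the null libraries and from 55.2 to 181 in the competent ones, the highest being Competent 9. Jak1, Jak2, Tyk2, Il2rg, Stat3, Stat5a, Stat5b and Stat6 overlapped between the genotypes as well. Competent 9 was below both ranges for Jak2 (43.6 FPKM), Il2rg (286 FPKM), Stat3 (57.4 FPKM) and Stat5a (23.5 FPKM), and within both for Jak1 (136 FPKM), Tyk2 (9.65 FPKM), Stat5b (34.6 FPKM) and Stat6 (42.0 FPKM). Of the 11 genes of the receptor and signalling list tested only Crlf2 had an unadjusted p under 0.05.

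For reference, starts of 3 genes are shown from RefSeq (GRCm38.p6), from 250 bases before to 30 after an annotated start of each. They are Crlf2, because it defines the groups, and Cish and Bcl6, because STAT5 is known to induce Cish and repress Bcl6. Crlf2 is at chr5:109558964-109559243 (minus strand), and its capital marks the listed start used. The span of Crlf2 given above reaches 109559128, which lies in the printed stretch before the capital. The capital is therefore inside the gene's span and not at its outer edge. Cish is at chr9:107296409-107296688 (plus strand) and Bcl6 at chr16:23981254-23981533 (minus strand, 1 of its 2 listed starts). Capitals in these mark each match to TTCNNNGAA, the STAT5 motif, which reads the same on both strands.
Crlf2: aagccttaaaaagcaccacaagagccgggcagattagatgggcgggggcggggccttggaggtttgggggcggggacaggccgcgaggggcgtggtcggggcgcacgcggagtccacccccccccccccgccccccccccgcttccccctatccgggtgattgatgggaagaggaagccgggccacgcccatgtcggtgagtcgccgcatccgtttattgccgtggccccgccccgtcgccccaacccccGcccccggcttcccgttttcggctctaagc
Cish: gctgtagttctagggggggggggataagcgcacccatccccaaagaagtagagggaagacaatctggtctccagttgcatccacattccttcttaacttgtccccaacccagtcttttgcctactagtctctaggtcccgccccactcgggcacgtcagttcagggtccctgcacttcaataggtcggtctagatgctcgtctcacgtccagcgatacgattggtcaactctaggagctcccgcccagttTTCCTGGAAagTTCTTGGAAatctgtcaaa
Bcl6: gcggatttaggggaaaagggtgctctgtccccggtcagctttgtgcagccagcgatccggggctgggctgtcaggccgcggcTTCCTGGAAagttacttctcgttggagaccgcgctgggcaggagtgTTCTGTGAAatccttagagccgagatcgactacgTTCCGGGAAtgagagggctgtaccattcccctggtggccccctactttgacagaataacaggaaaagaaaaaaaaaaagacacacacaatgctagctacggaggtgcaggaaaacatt
The motif occurred 2 times in the Cish stretch and 3 times in that of Bcl6. The start of Bcl6 shown was picked for having the most matches, so its count is the largest among its listed starts. Within 300 bases around any listed start it was found in 5 of the 18 genes of the STAT5 list with a listed promoter (Cish, Socs3, Lta, Bcl6 and Gimap7), and in 9.55% of all 27025 genes. A match is a description of the letters only.

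Across all genes, 1 of 11092 passed an adjusted p of 0.05 between 7 competent and 3 null libraries (0.00902% of genes), and 834 had an unadjusted p under 0.05 (7.52%), 313 higher (2.82%) and 521 lower (4.7%) in competent cells. The gene was Bend4, which encodes a BEN domain protein of little known function. Bend4 stood at 3.00, 5.52 and 3.58 FPKM in the null libraries and at 0.04 to 0.60 in the competent ones (median 0.12), Competent 6 being the highest. Every competent library was far under the lowest null library. The difference was -2.08 ± 0.28 (adjusted p = 0.0487, limma), and Competent 9, at 0.23 FPKM, lay within the transgenic competent range (place 0.96). The difference stayed between -2.23 and -1.88 with each library left out, but the adjusted p passed 0.05 when any of Competent 1, 2, 5, 8, 10 or any null library was left out, and when Competent 1 and 2, which share mice, were averaged (adjusted p = 0.0826). Without Competent 6 there were 3 calls and without Competent 9 there were 8.

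**Figure D1:**
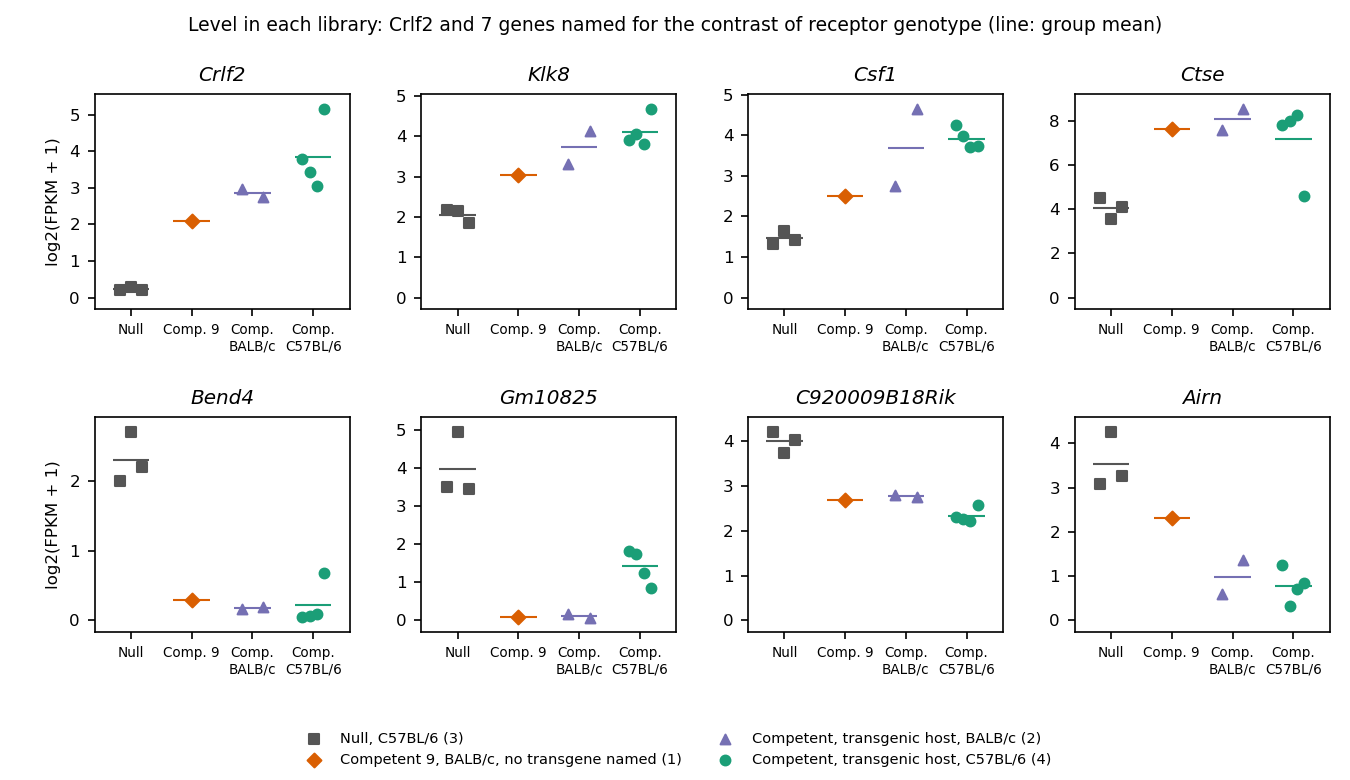
Level of 8 genes in each library, as log2(FPKM + 1), with null libraries as squares, Competent 9 as a diamond, other BALB/c libraries as triangles and other C57BL/6 competent libraries as circles; lines are group means. Competent 9 sits between the groups for Crlf2, Klk8, Csf1 and Airn, and with the competent libraries for Ctse, Bend4, Gm10825 and C920009B18Rik.

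Genes whose levels did not overlap between the genotypes numbered 86 higher (0.775% of genes) and 232 lower (2.09%) in competent cells. Beside Crlf2, the higher genes with the smallest p were Klk8, Ctse, Csf1, Cst3 and Tmem238, none of which passed the adjusted threshold with all libraries. Klk8 encodes a secreted serine protease of the kallikrein family. It lay at 3.52, 3.4 and 2.63 FPKM in Null 3, 4 and 7 and from 7.27 (Competent 9) over a median of 14.1 to 24.7 (Competent 6) in competent cells. The groups did not overlap, Competent 9 lay between the ranges (place 0.51), and the difference was 1.79 ± 0.33 (adjusted p = 0.118, limma). Ctse encodes cathepsin E, an aspartic protease of endosomes. It was at 21.6, 10.7 and 16.2 FPKM in the null libraries, at 23.6 in Competent 6 and at 194 to 376 in the other 6 competent libraries. Competent 9, at 200 FPKM, stood with the competent libraries other than Competent 6 (place 1.05). The high libraries were those of Ly5.1 donor cells (Competent 1, 2 and 5) and of BALB/c mice. The C57BL/6 libraries without a Ly5.1 label, Competent 6 and the null libraries, were low. Whether Ctse follows the donor background or the receptor was not tested. The difference of 3.46 ± 0.64 had an adjusted p of 0.118 by limma with all libraries, and 2.62e-05 at a difference of 3.94 when Competent 6 was left out.

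Csf1, the macrophage growth factor M-CSF, was at 1.48, 2.12 and 1.67 FPKM in null cells and from 4.63 (Competent 9) over 12.4 to 24.2 (Competent 10) in competent cells, again without overlap (2.20 ± 0.42, adjusted p = 0.126, limma). Competent 9 lay between the ranges, nearest to Competent 8 at 5.68 FPKM (place 0.43). Cst3, cystatin C, an inhibitor of cysteine proteases, was at 14.9 to 32.7 FPKM in null and 42.6 to 76.6 FPKM in competent libraries. Competent 9, at 44.6 FPKM, was in the transgenic range (place 0.75). Tmem238, a small membrane protein, was at 0 to 0.81 FPKM against 1.72 to 3.83 FPKM, with Competent 9 at 2.11 (place 0.83). Neither passed the threshold (limma, adjusted p = 0.133 and adjusted p = 0.195).

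Among the lower genes, Gm10825 and C920009B18Rik are neighbours on chromosome 10 (22402813 to 22407470 and 22306782 to 22314148, GRCm38), with H60b beside them at 22273474 to 22288849. Gm10825 was at 10.3, 30.1 and 10.0 FPKM in null cells and at 0.05 to 2.56 in competent cells, and Competent 9, at 0.06, was among the lowest (place 1.30; -3.12 ± 0.48, adjusted p = 0.0752, limma). C920009B18Rik was at 12.4 to 17.6 FPKM in null cells and 3.69 to 6.01 in competent cells, with Competent 9 at 5.42 (place 0.87; -1.48 ± 0.26, adjusted p = 0.0781, limma). Both were low in every competent library of either strain. H60b, a ligand of the NKG2D receptor of killer cells and 1 of a family of near copies whose reads may be shared, was low in the C57BL/6 competent libraries only. It was at 10.6 to 18.9 FPKM in null cells and at 0.95 to 2.39 FPKM in the 4 C57BL/6 competent libraries, but at 15.1, 22.8 and 8.89 FPKM in Competent 8, 9 and 10.

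Airn, a long non-coding RNA that overlaps Igf2r in antisense, was at 7.42, 18.2 and 8.56 FPKM in null cells and at 0.26 to 1.58 FPKM in the 6 transgenic competent libraries. Competent 9, at 3.99 FPKM, lay between the ranges (place 0.45), and the difference over all libraries was -2.47 ± 0.42 (adjusted p = 0.0781, limma). Whether strand was used in counting is not stated in the labels or methods, so reads of Airn and Igf2r may not be told apart. 1700022P22Rik, at 2.15 to 2.85 FPKM in null cells, was listed at 0 in 6 competent libraries and at 0.45 in Competent 1. E530001F21Rik, at 1.25 to 2.71 FPKM in null cells, was listed at 0 in 6 and at 0.13 in Competent 2. Competent 9 was at 0 for both (places 1.05 and 1.02; adjusted p = 0.0752 and 0.0781, limma).

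With Competent 9 left out, so that 6 competent libraries of transgenic hosts were set against 3 null libraries, 8 genes passed the adjusted threshold (0.0721% of genes) and 1127 had an unadjusted p under 0.05 (10.2%), 4.27% of genes higher and 5.89% lower. Crlf2, Lama5, Csf1, Myo6 and Klk8 rose (0.0451% of genes), and Airn, Bend4 and Gm10825 fell (0.027%). Lama5 and Myo6 were named after their values were seen. Lama5, a laminin chain of basement membranes, was at 2.50, 1.57 and 0.53 FPKM in null cells and at 8.47 to 18.4 in the 6 competent libraries (2.45 ± 0.35, adjusted p = 0.0283, limma). Competent 9 was at 2.00 FPKM, within the null range (place 0.13). Myo6, an unconventional myosin that moves towards the minus end of actin, was at 3.18, 1.28 and 2.03 FPKM in null cells, at 8.09 (Competent 8) to 46.8 (Competent 5) in the 6, and at 2.44 in Competent 9 (place 0.06; 2.95 ± 0.46, adjusted p = 0.0386, limma). For Lama5 and Myo6, named from the fit without Competent 9, that library stood with the null libraries. For Bend4, Ctse and Gm10825, named from the fit that counted it as competent, it stood with the competent ones. This way of naming favours such a contrast, so nothing is concluded from it.
The 8 calls were 0 when Competent 1 and 2 were averaged, or when Competent 1, Competent 2, Null 4 or Null 7 was left out. They were 2 without Competent 10, 16 without Null 3 and 36 without Competent 6.

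Within C57BL/6, which holds the labelled strain constant, 4 competent and 3 null libraries gave 10 calls (0.0902% of genes). Competent 1, 2 and 5 were Ly5.1 donor cells, a label that Competent 6 and the null libraries lack. A difference between donor lines is therefore not removed here, and was not tested. Hdc, Csf1, Myo6, Crlf2, Il5, Plscr1 and Klk8 rose (0.0631%), and H60b, Airn and Gramd3 fell (0.027%). An unadjusted p under 0.05 was found for 1374 genes (12.4%), 4.46% of genes higher and 7.92% lower, and the groups did not overlap for 462 higher (4.17%) and 1031 lower genes (9.29%). Hdc, Plscr1, H60b and Gramd3 were likewise named after their values were seen. Hdc, which makes histamine from histidine, was at 0.26, 0.70 and 2.33 FPKM in null cells and at 54.5, 44.3, 51.7 and 18.4 FPKM in Competent 1, 2, 5 and 6 (4.38 ± 0.45, adjusted p = 0.0112, limma). In BALB/c it was at 1.01, 0.91 and 3.25 FPKM in Competent 8, 9 and 10, so only the C57BL/6 competent libraries were high. Competent 9 was in the null range (place -0.0036). Hdc is a known basophil and mast cell gene. The 6 such markers found summed to at most 1.84 FPKM in null cells and 0.56 to 17.3 in competent cells. The sum was highest in Competent 8, mostly from Kit, and Hdc was 1.01 FPKM there. Plscr1, a phospholipid scramblase, was at 1.68 to 5.36 FPKM in null cells, at 15.8 to 24.7 FPKM in these 4 libraries and at 1.52 in Competent 9, below both ranges (place -0.28; 2.41 ± 0.36, adjusted p = 0.0449, limma). Gramd3, which encodes a GRAM domain protein, was at 65.8 to 119 FPKM in null cells, 20.3 to 30.9 in the 4 and 108 in Competent 9 (place -0.19, adjusted p = 0.0439, limma).
The 10 calls became 0 when Competent 1 and 2 were averaged or Null 4 was left out, 1 without Null 7, 2 without Competent 1, 3 without Null 3, 4 without Competent 2 and 139 without Competent 6. With strain as a covariate over all 10 libraries there were 8 calls, Crlf2 among them at 3.62 (adjusted p = 0.0123, limma).

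**Figure D2:**
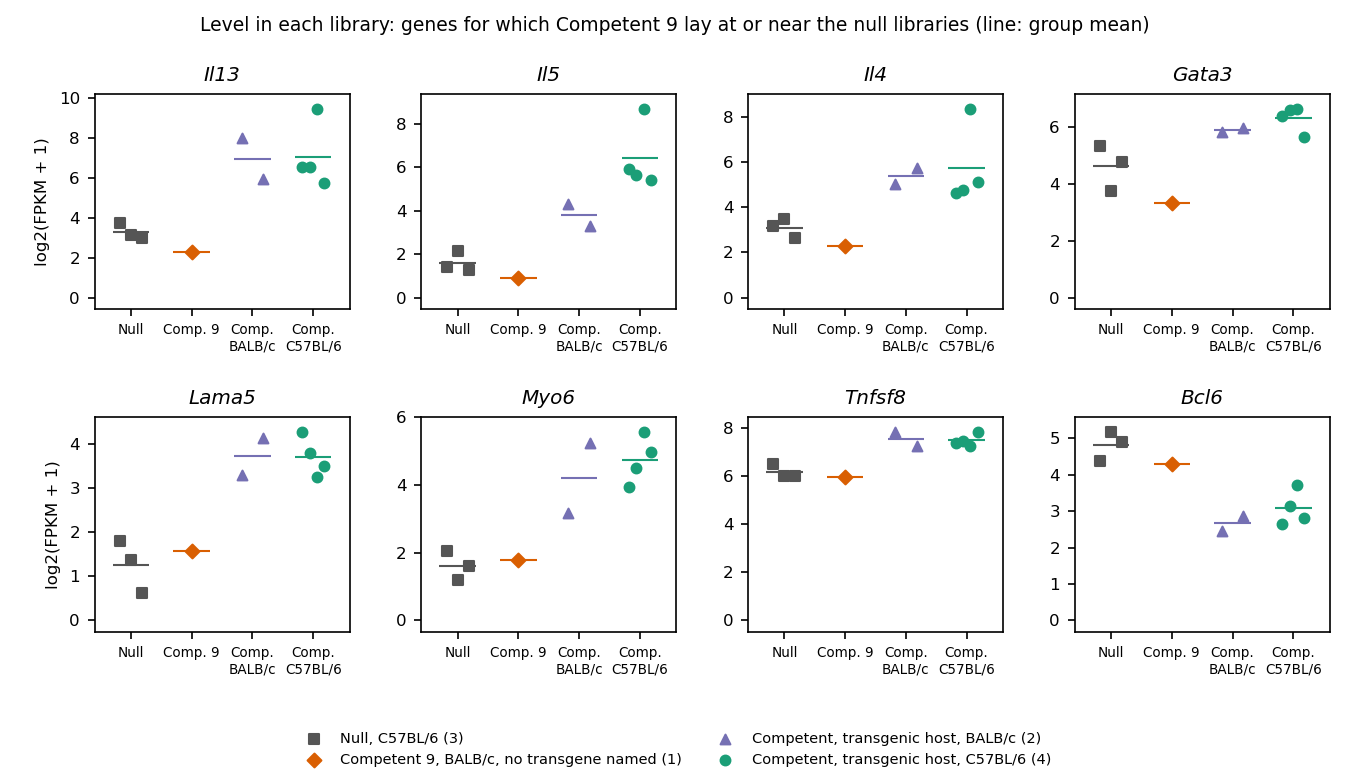
Level of 8 genes in each library, as log2(FPKM + 1), with the same symbols as the plot of Crlf2 and its companions. Competent 9 sits at or below the null libraries for Il13, Il5, Il4, Gata3 and Tnfsf8, within them for Lama5 and Myo6, and just below them for Bcl6.

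All 16 tested members of the cytokine panel had a positive difference in competent cells (median 1.43 on the log2 scale, against -0.038 over all genes, of which 45.9% were positive). Of these 7 had an unadjusted p under 0.05, where 2.82% of all genes were higher, and none passed the adjusted threshold. With Competent 9 left out the median was 1.70 (-0.031 over all genes), and 1 of 16, Csf1, rose. Within C57BL/6, 14 of 16 were positive (median 1.56), the exceptions being Il17a and Il22 (-0.12 and -0.24). Those 2 genes were at 157 and 56.8 FPKM in Competent 8 and at most at 8.68 and 1.16 FPKM in the other competent libraries. The mean level of the panel was 2.35, 2.41 and 2.57 in Null 3, 4 and 7, 3.57 to 5.69 in the transgenic competent libraries and 2.20 in Competent 9. Competent 9 was therefore below all null libraries for the panel as a whole, although it carries the receptor, and Null 7 was next to the other null libraries, although its host carries the transgene.

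Il13, a Th2 effector cytokine, was at 12.1, 7.87 and 6.80 FPKM in null cells, at 51.9 (Competent 6) to 698 (Competent 5) in transgenic competent cells and at 3.85 in Competent 9, below both ranges (place -0.27). Its difference was 3.07 ± 1.03 over all libraries (adjusted p = 0.585, limma) and 3.75 ± 0.66 without Competent 9 (adjusted p = 0.0659, limma). Il5, which encodes the cytokine on which eosinophils depend, was found at 1.65, 3.46 and 1.41 FPKM in null cells, 8.70 (Competent 10) to 413 (Competent 5) in transgenic competent cells and 0.89 in Competent 9 (place -0.18). It passed the threshold within C57BL/6 only (4.81 ± 0.67, adjusted p = 0.0353, limma), and whether that differs from the other fits was not tested. Il4, the cytokine that starts the Th2 state, was at 5.25 to 10.2 FPKM in null cells, 24.0 to 325 in transgenic competent cells and 3.80 in Competent 9 (place -0.33). In these 3 genes Competent 9 was the lowest of all 10 libraries.

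Il3 and Csf2, growth factors of myeloid cells that neighbour each other on chromosome 11, followed the same order. Il3 was at 2.04 to 2.70 FPKM in null cells, 14.7 to 850 FPKM in transgenic competent cells and 3.30 in Competent 9, just above the null range (place 0.080). Csf2, which encodes GM-CSF, was at 0.42 to 0.62 FPKM in null cells, 4.41 to 89.9 FPKM in transgenic competent cells and 0.54 in Competent 9, within the null range (place 0.0032). Il9, a mast cell growth factor, was at 2.09 FPKM in Null 3 and listed at 0 in Null 4, Null 7 and Competent 9, against 1.22 to 15.2 FPKM in the others. Not every cytokine did so. Ifng, the Th1 cytokine, was at 5.99 to 13.4 FPKM in null cells, 4.62 to 167 in transgenic competent cells and 20.8 in Competent 9 (place 1.23), and Il2, the T cell growth factor, overlapped widely (4.95 to 23.3 FPKM in null against 9.68 to 503 in transgenic competent cells, Competent 9 at 16.3 and place 0.16). The remaining 7 cytokines of the panel, Il10, Il17a, Il21, Il22, Lif, Tgfb1 and Tnf, overlapped between the genotypes, with adjusted p from 0.783 to 0.957 (limma). Competent 9 was within both ranges for Il10 (5.26 FPKM), Tgfb1 (41.0 FPKM) and Il22 (listed at 0). For Il17a (0.47 FPKM) and Il21 (0.61 FPKM) it was below the null range and within the transgenic competent range. Of these, Competent 9 was below both ranges for Lif alone, a cytokine of the interleukin 6 family, at 1.20 FPKM against 4.51 to 7.75 in null and 6.06 to 25.7 in transgenic competent cells. For Tnf it was at 46.7 FPKM, above the null range of 14.3 to 28.9. Competent 8, the highest for Ifng, Il2 and Csf2, also held the highest sum of basophil and mast cell markers, mostly Kit at 16.7 FPKM. The other markers were low there: Mcpt8, Cpa3 and Fcer1a were listed at 0, Ms4a2 at 0.41 and Gata2 at 0.24 FPKM. A part of such cells in these levels was not tested.

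**Figure D3:**
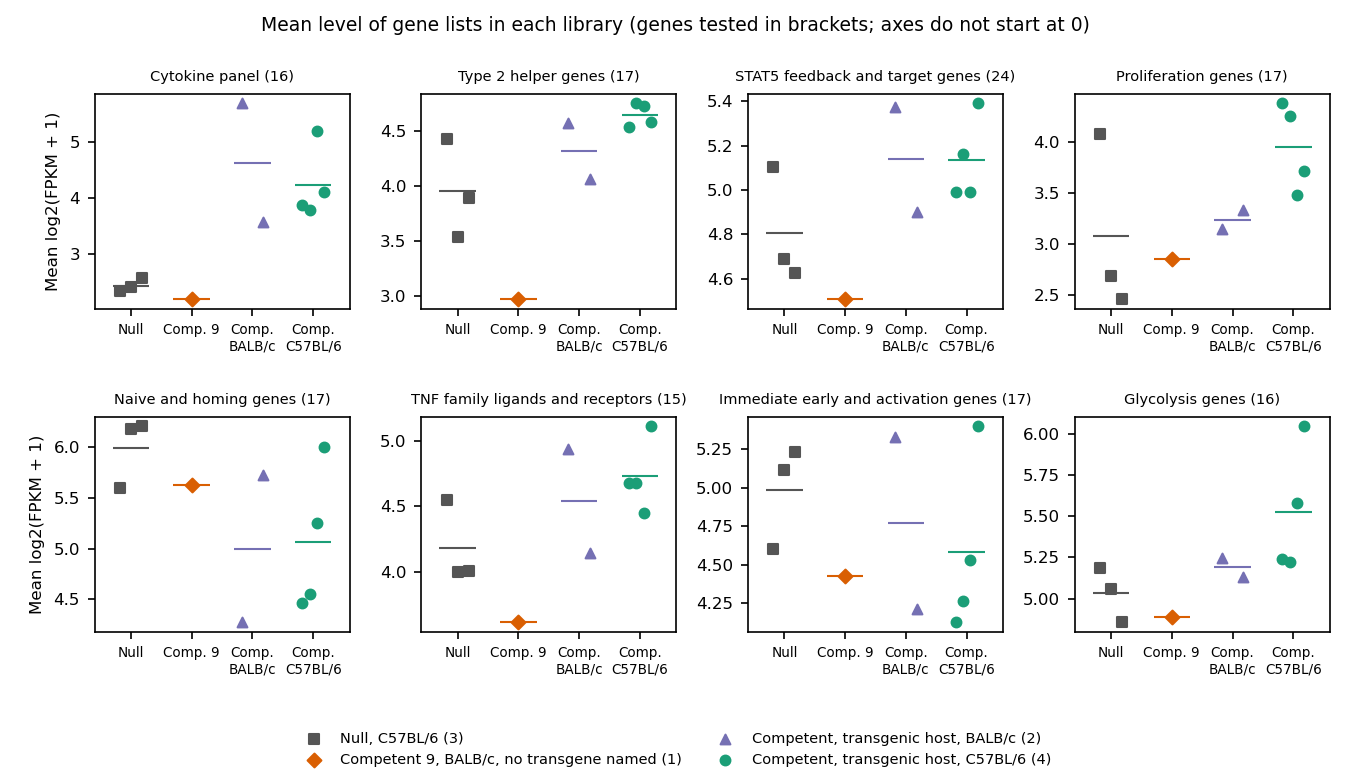
Mean log2(FPKM + 1) over the tested genes of 8 lists in each library, with group means as lines; the axes do not start at 0. Competent 9 lies below every null library for the cytokine panel, the Th2 list, the STAT5 list and the tumor necrosis factor family, and Null 3 lies above the other null libraries for the Th2, STAT5 and proliferation lists.

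Of the 17 tested genes of the Th2 program, 12 had a positive difference (median 0.39), against 45.9% of all genes. None had an unadjusted p under 0.05 with all libraries, which 7.52% of all genes reached. Without Competent 9, 14 of 17 were positive (median 0.65) and 5 were higher at that p, against 4.27% of all genes. Within C57BL/6, 7 were higher at that p, against 4.46% of all genes. None passed the adjusted threshold in any of these comparisons. Gata3, the master transcription factor of Th2 cells, was at 39.1, 12.4 and 25.9 FPKM in null cells and at 49.3 to 98.1 in transgenic competent cells, without overlap between these. Competent 9 was at 8.99 FPKM, the lowest of all libraries (place -0.82), and the difference over all libraries was 1.15 ± 0.59 (adjusted p = 0.692, limma). Il1rl1, the IL-33 receptor, was at 33.1 FPKM in Null 3, 2.62 in Null 4, 6.85 in Null 7 and 2.76 in Competent 9 (place -0.64), against 18.2 to 83.8 in the others. Rbpj, the transcription factor of Notch signalling, was at 31.6 to 43.6 FPKM in null cells, 46.5 to 85.7 in transgenic competent cells and 21.4 in Competent 9 (place -0.74). The list's mean level was 4.43 in Null 3, 3.54 and 3.89 in Null 4 and Null 7, 4.06 to 4.75 in transgenic competent cells and 2.97 in Competent 9, so here Null 3 overlapped with the competent libraries.

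STAT5, the factor below the receptor, has a set of feedback and target genes, of which 24 were tested. Of these 18 had a positive difference (median 0.30), against 45.9% of all genes. At an unadjusted p under 0.05, 4 were higher (2.82% of all genes) and 2 were lower (4.7%), and none passed the adjusted threshold. Cish, a feedback inhibitor of cytokine receptors, was at 127, 54.7 and 63.4 FPKM in null cells and at 147 to 270 in transgenic competent cells, without overlap (1.18 ± 0.33 over all libraries, adjusted p = 0.557, limma). Competent 9, at 94.5 FPKM, lay within the null range (place 0.23). Socs2, another inhibitor of this family, was at 7.53 to 23.5 FPKM in null and 16.5 to 40.8 in transgenic competent cells, and Competent 9, at 20.3, was in both ranges (place 0.61). Socs1 was at 11.1 to 21.4 FPKM in null cells, 26.3 to 228 in transgenic competent cells, highest in Competent 6, and 16.9 in Competent 9 (place 0.062). Bcl6, the repressor that directs follicular helper cells, was lower in competent cells. It was at 19.7, 35.5 and 29.2 FPKM in null cells, 4.54 to 12.2 in transgenic competent cells and 18.7 in Competent 9, just under the null range (place 0.28; -1.68 ± 0.37, adjusted p = 0.266, limma). The other tested genes of the list overlapped between the genotypes or had an adjusted p above 0.5 (limma). Beside Lif, Competent 9 was below both ranges for Socs3, another feedback inhibitor (9.72 FPKM against 17.4 to 27.0 in null and 15.7 to 93.6 in transgenic competent cells), Bcl2l1, a survival factor (5.35 FPKM), Nfil3, a leucine zipper factor (4.30 FPKM), and Tnfrsf8, the CD30 receptor, which was listed at 0. Lta, which encodes lymphotoxin alpha, was at 29.1 FPKM in Competent 9, above the null range of 10.6 to 18.7, and Gimap7, a lymphocyte GTPase, at 25.2 FPKM, within the null range of 17.7 to 36.2. Il2ra, the high-affinity IL-2 receptor chain, was at 55.9 to 186 FPKM in null cells, 95.2 to 500 FPKM in transgenic competent cells and 187 in Competent 9.

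Naive and homing genes were lower in competent cells in 16 of 17 cases (median -0.89), 5 of them with an unadjusted p under 0.05, and none passed the adjusted threshold. Over all genes 45.9% were positive and 4.7% were lower at that p. The 4 tested B cell markers were also all lower in competent cells (median -0.66) and highest in Null 4, which was the highest library for Bach2, Zbtb20 and Foxp1 as well, and their part in these levels was not tested. Bach2, a repressor that keeps T cells quiescent, was at 46.7 to 96.1 FPKM in null cells, 11.7 to 36.5 in transgenic competent cells and 42.7 in Competent 9, between the ranges (place 0.46; -1.22 ± 0.34). Zbtb20, a zinc finger repressor, was at 5.12 to 15.9 FPKM, 0.54 to 2.92 FPKM and 6.56 FPKM in the same order, with Competent 9 in the null range (place 0.10). Foxp1, a factor of naive T cells, was at 59.2 to 97.03 FPKM in null cells, 33.1 to 62.7 in transgenic competent cells and 77.1 in Competent 9 (place 0.035). Proliferation genes had a positive difference in 16 of 17 cases (median 0.61), but 1 had an unadjusted p under 0.05, a share no larger than the 7.52% of all genes, and none passed the adjusted threshold. That gene was Cdk1, the kinase of mitotic entry, at 3.63, 0.48 and 0.37 FPKM in null cells, 1.19 to 4.59 in transgenic competent cells and 1.88 in Competent 9 (place 0.45). Null 3, pooled from draining nodes, overlapped with the competent libraries for that list, at a mean level of 4.08 against 3.14 to 4.39, while Null 4, Null 7 and Competent 9 were at 2.68, 2.45 and 2.85.

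Of the tumor necrosis factor family, 11 of 15 genes had a positive difference (median 0.55), against 45.9% of all genes. An unadjusted p under 0.05 was found for 3 that were higher (2.82% of all genes) and 1 that was lower (4.7%), and none passed the adjusted threshold. Tnfsf8, the CD30 ligand, was at 88.2, 63.1 and 61.9 FPKM in null cells, 150 to 227 in transgenic competent cells and 60.1 in Competent 9, below both ranges (place -0.16). Its difference was 1.12 ± 0.35 over all libraries and 1.34 ± 0.24 without Competent 9 (adjusted p = 0.575 and 0.0659, limma). Tnfrsf4, the costimulatory receptor OX40, was at 54.5 to 175 FPKM in null cells, 119 to 396 in transgenic competent cells and 90.6 in Competent 9 (place -0.058). Cd27, a costimulatory receptor of naive and memory cells, was lower: 136, 217 and 149 FPKM in null cells, 20.6 to 100 in transgenic competent cells and 90.5 in Competent 9, within the competent range (place 0.48; -1.63 ± 0.42, adjusted p = 0.482, limma).

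Other lists held few genes that parted the genotypes. Il12rb2, a subunit of the receptor for IL-12, which drives Th1 cells, was at 14.6, 6.06 and 14.7 FPKM in null cells and 1.77 to 4.15 in competent cells, with Competent 9 at 1.92 (place 1.22; -1.72 ± 0.34, adjusted p = 0.133, limma). Nr4a2, an immediate early nuclear receptor, was at 17.5, 53.8 and 34.3 FPKM against 2.71 to 12.2 FPKM, with Competent 9 at 10.9 (place 0.69; -2.03 ± 0.43, adjusted p = 0.195, limma). Both were lower in every competent library of either strain. Cst7, an inhibitor of granule proteases, was at 3.34 to 5.88 FPKM in null cells, 10.2 to 35.2 in transgenic competent cells and 5.92 in Competent 9 (place 0.16). Ccl1, a chemokine of Th2 cells, was at 1.83 to 4.15 FPKM, 5.88 to 338 FPKM and 9.26 FPKM in the same order (place 0.36; 3.24 ± 0.97, adjusted p = 0.575, limma). Ldha and Pgk1, enzymes of glycolysis, had Competent 9 at 182 and 54.2 FPKM (places 0.15 and -0.019) against 164 to 174 and 40.9 to 72.6 in null cells and 220 to 337 and 73.8 to 217 in transgenic competent cells.

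Ahr, a ligand-activated factor of Th17 and Th22 cells, was at 1.64 to 6.45 FPKM in null cells, 6.95 to 25.8 in transgenic competent cells and 2.96 in Competent 9 (place -0.23). Of regulatory T cell genes, Capg was at 27.2 to 65.7 FPKM in null cells and 73.8 to 276 in competent cells, Competent 9 being the lowest at 73.8 (place 0.55), Itgae, the CD103 integrin of tissue-resident cells, was at 5.32 FPKM in Competent 9 (place -0.054) and Lrrc32, which presents latent transforming growth factor beta, at 34.7 FPKM (place 1.06). Itgae and Lrrc32 overlapped between the genotypes. Cxcr5 and Pou2af1 of the follicular helper list had Competent 9 at 1.12 and 13.8 FPKM (places 1.46 and 0.59), and overlapped as well. Entpd1, the ectonucleotidase CD39, had it at 3.12 FPKM (place 0.23). Tnfaip3 and Jun, of the immediate early list, had Competent 9 at 73.2 and 5.06 FPKM, below both ranges, against 133 to 302 and 18.1 to 22.2 in null cells. Ifit1 and Ifit3, interferon-induced antiviral genes, were at 3.74 to 29.8 and 5.89 to 9.76 FPKM in null cells, with Competent 9 at 2.35 and 1.36 FPKM (places 1.47 and 1.35).

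**Figure D4:**
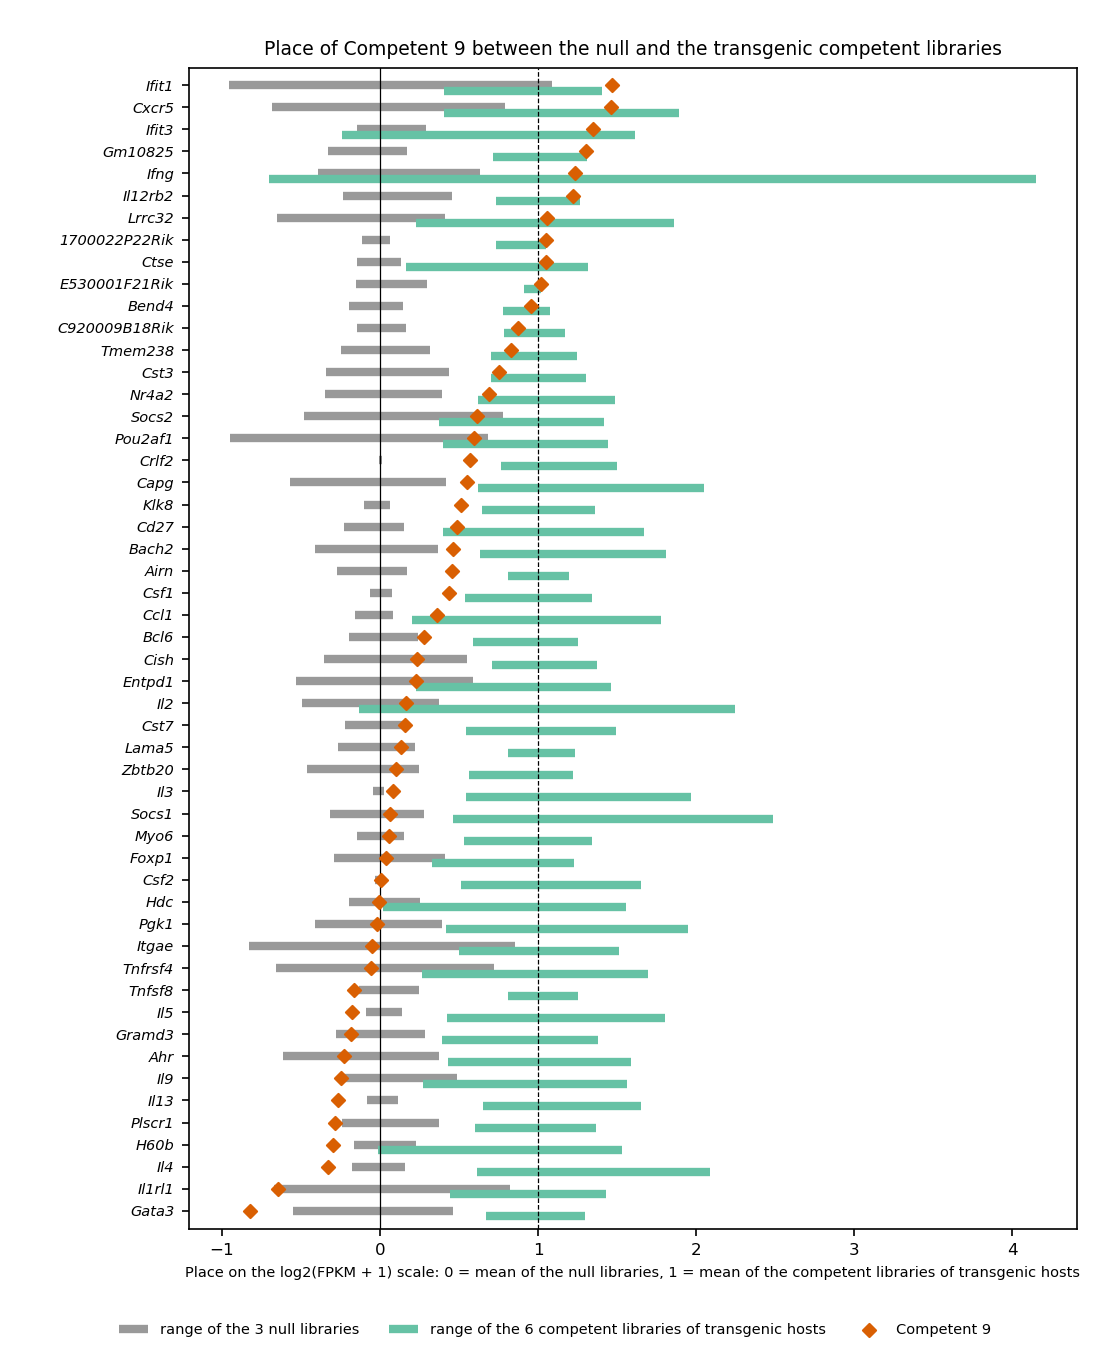
Place of Competent 9 for the 52 genes of the text whose difference without Competent 9 was at least 1 on the log2 scale, with 0 at the null mean and 1 at the mean of the 6 transgenic competent libraries; gray and green bars are the ranges of these groups and diamonds are Competent 9. Competent 9 lies at or under 0.25 for 26 genes, over 0.75 for 14 and in between for 12.

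Over the 52 genes of the text whose difference without Competent 9 was at least 1, Competent 9 lay at or under a place of 0.25 for 26, from Gata3 to Cish, and over 0.75 for 14, from Cst3 to Ifit1. Since these genes were chosen with results known, some in a fit that counted Competent 9 as competent, the same was measured over all genes. Of 218 genes that were higher in all 6 transgenic competent libraries than in all null libraries (1.97% of genes), Competent 9 reached the competent range in 25.2% and lay within or beyond the null range in 60.6%, with a median place of 0.12. In TPM the median place was 0.11, with 61.9% in or beyond the null range. Other scalings raised it: the median place was 0.32 with median-ratio scaling, 0.25 without ribosomal RNA and 0.30 after quantile normalization. The share in or beyond the null range was then 47.1%, 51.5% and 45.8%. When each of the other 6 competent libraries was left out in the same way, the library left out reached the range of the rest in 55.3% (Competent 1) to 82.4% (Competent 10) of 102 to 123 genes. Those sets were chosen with Competent 9 among the competent libraries, so they are not the same genes. Of 407 genes that were lower (3.67% of genes), Competent 9 reached the competent range in 45.7% and the null range in 43.0%. With median-ratio scaling, without ribosomal RNA and after quantile normalization, Competent 9 reached the competent range in 32.3%, 35.3% and 33.8% of the lower genes. In TPM it did so in 39.25%. As deposited, Competent 6, the library with little ribosomal RNA, reached the range of the rest in 37.0% of 481 lower genes and the other 5 in 57.2 to 91.0%; these were not computed under other scalings, so no order of Competent 6 and 9 is read.

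**Figure D5:**
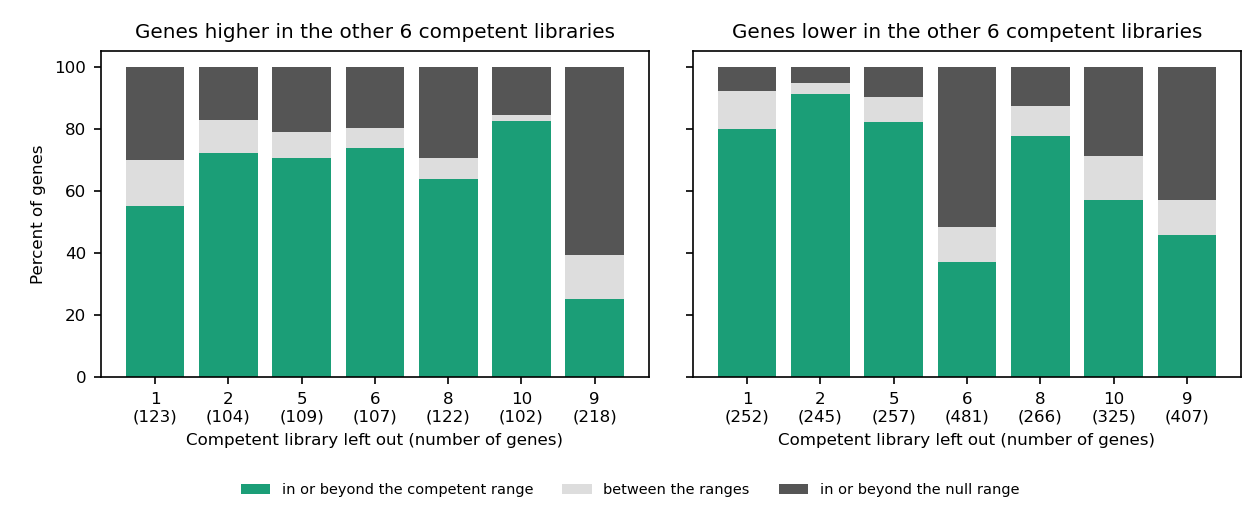
Percent of genes, for each competent library left out, in which that library fell in or beyond the range of the other 6 competent libraries (green), between the ranges (light gray) or in or beyond the null range (dark gray); the numbers of genes are in brackets. In the values as deposited, Competent 9 has the smallest green share for higher genes, 25.2%, and Competent 6 for lower genes, 37.0%.

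Tested as a group of its own, with its spread taken to be that of the other libraries, Competent 9 gave no calls against the null libraries (0% of genes) and none against the 6 transgenic competent libraries (0%), by limma, with 321 genes (2.89%) and 654 genes (5.9%) at an unadjusted p under 0.05. Of all genes 2.29% and 4.25% were lower in Competent 9 at that level, and 0.604% and 1.65% higher. Among the named genes, Gata3 had the smallest p in the second comparison (adjusted p = 0.47, limma). Competent 9 differs from the transgenic competent libraries in its transgene and, by its genotype, in naming no source of a tumor, although the labels give terminal tumors for all mice. It is BALB/c, whereas Competent 1, 2, 5 and 6 are C57BL/6. No transfer is named for it, whereas the cells of Competent 1, 2, 5 and 8 were transferred. From the null libraries it differs in its strain and genotype, and from Null 3 and Null 4 in transfer. Competent 9 is 1 library from 1 mouse, so the receptor, the transgene, strain, transfer and that mouse cannot be told apart in it. Against the other BALB/c libraries alone, Competent 9 was lower than both Competent 8 and Competent 10 for Crlf2 (3.28 against 6.82 and 5.70 FPKM), Il13 (3.85 against 250 and 60.1 FPKM), Gata3 (8.99 against 55.0 and 60.6 FPKM) and Myo6 (2.44 against 8.09 and 36.5 FPKM), and higher than both for Bcl6 (18.7 against 4.54 and 6.38 FPKM).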

How the data were processed

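CD4+ T cell RNA from 10 mouse libraries was sequenced by the authors, who mapped reads to mm10. Their processing notes name Bowtie, BWA and RSEM without versions, and the sources read here state no strandedness. The deposited values are FPKM, with no counts, so the count tests of the study were not repeated. Libraries were grouped by the receptor genotype of the T cells. Genes reaching FPKM 1 in at least 3 of 10 libraries (11092 of 17457) were tested as log2(FPKM + 1) with limma 3.58.1 (R 4.3.3; empirical Bayes with trend, two-sided, Benjamini-Hochberg over all tested genes, threshold 0.05). The step was tested on simulated data. Depth is unknown, which leaves no counting interval.

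Genes named were Crlf2 and its signalling list, the leading genes of the 7 against 3 comparison at a mean of FPKM 2 or more, tested cytokine panel and STAT5 genes, and up to 3 genes of each other list by unadjusted p; members that no comparison separated are given by counts or left out. Genes outside that rule are identified in the text. Members and lists were chosen with earlier results of these data known. Alternatives covered pseudocount, filter, scaling, prior, array weights, strain, shared mice and each library left out. Promoters were from RefSeq (GRCm38.p6). Figures were drawn with matplotlib 3.10.9.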

Additional observations from a re-analysis of the deposited data

Results flagged for a closer look

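In 19 of 86 values examined (55 genes, 29 lists, the ribosomal RNA share and the first component), 1 library of the 7 competent libraries lay far from the other 6, with a gap over 0.568 of the range (on the log2 scale for genes), where chance gives about 1 in 20. None of the causes was tested.

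Competent 6 was far off in 8 of these. Its Ctse was 23.58 FPKM against 194.35 to 375.8 in the rest, and its Bend4 was 0.60 FPKM against 0.04 to 0.23. In mean log2(FPKM + 1), it was at 6.7065 for the receptor and signalling list (rest 5.6727 to 6.0269), 4.6863 for follicular helper genes (rest 3.5014 to 3.9444), 4.6917 for interferon-stimulated genes (rest 3.1443 to 3.5775), 1.7863 for B cell markers (rest 0.2445 to 0.7427) and 5.3048 for red cell markers (rest 0.2323 to 1.5925). On the first principal component it was at 91.64 (rest -32.22 to -1.974).

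Competent 9, the library without a named transgene, was low in 4. Lama5 was at 2.00 FPKM (rest 8.47 to 18.4), Gata3 at 8.99 FPKM (rest 49.27 to 98.14), Tnfsf8 at 60.08 FPKM (rest 149.7 to 227.01) and type 2 helper genes at a mean of 2.9692 (rest 4.0622 to 4.7516).

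Competent 8 was far off in 5. Ifng was at 166.71 FPKM (rest 4.62 to 21.62) and Bach2 at 11.71 FPKM (rest 25.36 to 42.71). Its mean level was 5.314 for type 17 helper genes (rest 1.0553 to 2.4034), 0.7049 for CD8 T cell markers (rest 1.8156 to 2.2357) and 4.1432 for basophil and mast cell markers (rest 0 to 1.4803). Of the basophil and mast cell list only Kit was tested. Last, 1700022P22Rik was at 0.45 FPKM in Competent 1 and E530001F21Rik at 0.13 FPKM in Competent 2, each listed at 0 in the other 6.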

How the results depend on the processing

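No paired analysis was possible because no replicate number of the competent libraries recurs among the null libraries. Depth is unknown, groups are small and strain, transgene and receptor largely coincide, so the counts of calls are the least stable values. Across 81 gene differences and 1871 gene and setting pairs, 0 reversed, 179 lost and 72 gained a call.

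The 7 against 3 comparison (1 call) gave 5 calls at a pseudocount of 5, 3 with any value above 0 in 3 libraries, 0 at FPKM 5 or more, 2 in TPM, 7 without ribosomal RNA, 0 after quantile normalization, 4 without a trend, 31 with array weights, 8 with strain as a covariate and 0 with Competent 1 and 2 averaged. An alternative chosen after seeing the data, with Competent 1 and 2 averaged and Competent 6 left out, gave 3 here, 4 for 6 against 3 and 12 for 4 against 3. The 6 against 3 comparison (8 calls, 5 higher and 3 lower) gave 0 at a pseudocount of 5, 5 at FPKM 5 or more, 15 without ribosomal RNA (6 higher and 9 lower), 178 with array weights and 0 with the averaging. The 4 against 3 comparison (10 calls, 7 higher and 3 lower) gave 1 at a pseudocount of 5, 0 with any value above 0, 19 in TPM (8 higher and 11 lower), 18 without ribosomal RNA (7 higher and 11 lower), 15 with median-ratio scaling (9 higher and 6 lower), 19 after quantile normalization (11 higher and 8 lower), 353 with array weights and 0 with the averaging. Competent 9 against null (0 calls) gave 1 at a pseudocount of 0.1, 2 with any value above 0 and 1 with array weights, and against transgenic competent libraries (0 calls) 1, 6 and 13. TPM moved the median of all genes in the 7 against 3 comparison from -0.038 to -0.184. With each library left out, the counts ranged from 0 to 8, 0 to 36, 0 to 139, 0 to 1 and 0 to 1 in this order. The share of higher genes in which Competent 9 reached the competent range (25.23%) became 35.17% with median-ratio scaling, 34.55% without ribosomal RNA and 35.79% after quantile normalization. In TPM it was 22.22%. The causes were not tested.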
